A study of Mus musculus with 6 samples.

Results

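The 10 genes described here encode the core of the circadian clock: the activators *Arntl* and *Clock*, the repressors *Per1*, *Per2*, *Per3*, *Cry1* and *Cry2*, the nuclear receptors *Nr1d1* and *Nr1d2*, and the output factor *Dbp*. They were taken by name from the 20145 genes that could be named on the array, and all 11 of their probes were read (2 for *Dbp* and 1 for each other gene). Of the 10, 9 were well above background on all 6 arrays and were tested among 14847 genes, whereas *Cry1* was not. Whole uteri were collected from mice in natural pregnancy at gestation day (GD) 3.5, in the window in which the mouse uterus becomes receptive to the blastocyst, with 1 mouse on each array. The 3 Sox17f/f mice carried floxed *Sox17* alleles and no recombinase, and the 3 Sox17ed/ed mice carried the same floxed alleles with an iCre placed in the *Ltf* locus, which acts in the uterine epithelium. All females were mated at 8 to 10 weeks of age to males of proven fertility and killed 3 days after the plug, and embryos were not in the tissue. Since the control mice had no iCre, the recombinase and the loss of *Sox17* cannot be told apart, and neither label nor method gives the hour of day at which these uteri were taken.

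The clock is a feedback loop that runs in nearly every cell. ARNTL (also called BMAL1) and CLOCK bind E-boxes and switch on the *Per* and *Cry* genes, whose products return to the nucleus and repress their own transcription over about a day. A second loop joins through *Nr1d1* and *Nr1d2*, which encode REV-ERB receptors that silence *Arntl* at ROR elements where the ROR receptors activate it, and DBP and its relatives drive further rhythmic genes from D-boxes against the repressor NFIL3. Clock mRNAs oscillate in the uterus, and mice that lack *Arntl* have poor implantation, in large part through progesterone made by the ovary. Because the level of most of these mRNAs depends on the hour, their spread between mice is read here beside the difference between genotypes.

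Loss of *Sox17* was visible on the arrays, with a log2 fold change in Sox17ed/ed over Sox17f/f uteri of -2.45 (standard error 0.09, limma adjusted p = 2.66e-05). Signal is given throughout as quantile normalized log2 intensity, on which a difference of 1 is a doubling, and levels of different genes are not compared because probes differ in brightness. A gene was called changed at the thresholds of the study's methods, an unadjusted p under 0.01 with a fold change of at least 1.4 (0.49 on the log2 scale), and p adjusted over all 14847 genes is given beside it. The 6 arrays lay on 1 slide, each genotype in a line of its own, so that genotype and line cannot be told apart. Between 60.7% and 65.7% of spots were well above background on the Sox17f/f arrays and between 56.8% and 59.4% on the Sox17ed/ed arrays. The labels do not say whether mice were littermates, and p-values measure only the spread between these 6 mice.

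None of the 9 clock genes tested passed the thresholds of the methods, beside 12.5% of all genes tested (6.04% higher and 6.47% lower in Sox17ed/ed uteri). Without the fold threshold, *Per2* and *Clock* had an adjusted p under 0.05, both lower in Sox17ed/ed uteri, a count of 2 of 9 beside 18.9% of all genes. At an unadjusted p under 0.05 the count was 4 of 9 beside 33.9% of all genes, with *Dbp* higher and *Per1*, *Per2* and *Clock* lower. The same 4 genes had no overlap between the arrays of the genotypes, 4 of 9 beside 40.6% of all genes. By the last 3 counts the clock genes exceeded the share of all genes by less than 1 gene, and by the thresholds of the methods they were under it. The changes ran both ways, 4 genes higher and 5 lower, with a median log2 fold change of -0.06 and a range from -0.39 to 0.42. The median size of the change regardless of sign was 0.31 for the clock genes and 0.17 for all genes tested.

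**Figure D1:**
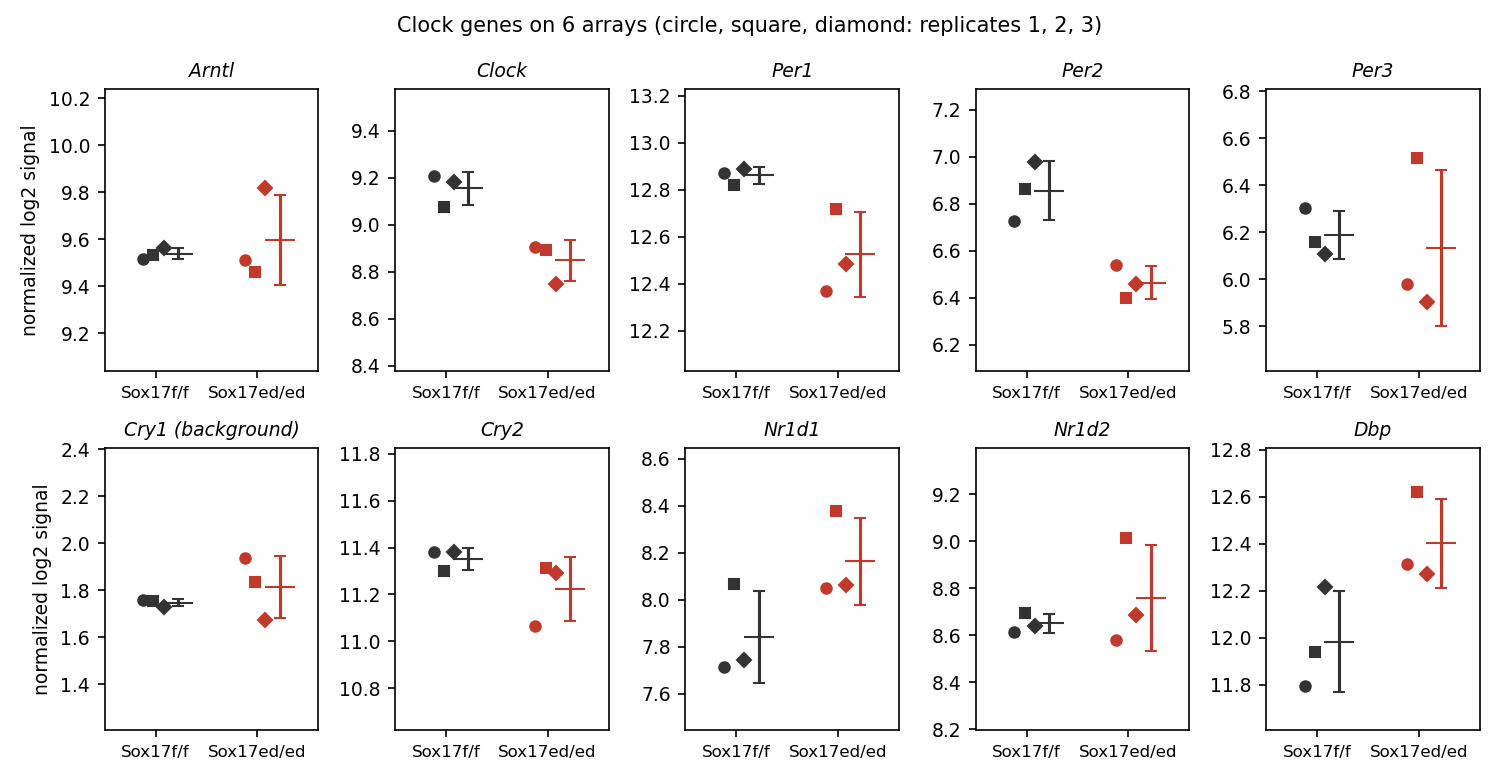
Normalized log2 signal of the 10 clock genes on each array, with Sox17f/f mice in grey and Sox17ed/ed mice in red. Each panel spans 1.2 log2 units, bars give the mean ± SD of 3 arrays, *Dbp* is shown by its brighter probe, and *Cry1* was at background on each array. *Clock*, *Per1* and *Per2* lay lower and *Dbp* higher in Sox17ed/ed mice without overlap, and the Sox17ed/ed spread was wide for *Arntl*, *Per3* and *Nr1d2*.

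The activators gave unlike values. *Clock*, which encodes the E-box binding partner of ARNTL, read 9.21, 9.08 and 9.18 in the Sox17f/f uteri and 8.90, 8.89 and 8.75 in the Sox17ed/ed uteri. Each Sox17ed/ed mouse lay below each control, and the log2 fold change was -0.31 (standard error 0.08, 95% interval -0.49 to -0.12, limma adjusted p = 0.0385), a decrease of 1.24-fold. Leaving out single arrays gave values from -0.35 to -0.26, but the adjusted p then ran from 0.0591 to 0.129, so the adjusted call was lost in all 6 cases. *Arntl* read 9.52, 9.53 and 9.56 in the controls and 9.51, 9.46 and 9.82 in the Sox17ed/ed uteri. The groups overlapped, since 2 Sox17ed/ed mice lay just under the controls and the other well above them. Its log2 fold change was 0.06 (standard error 0.11, 95% interval -0.20 to 0.32, adjusted p = 0.740), an interval that stayed inside the fold threshold on both sides, and without Sox17ed/ed replicate 3 the value was -0.05.

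Of the period genes, which encode the repressors that accumulate and decay over the day, *Per1* and *Per2* lay lower without overlap and *Per3* overlapped. *Per2* read 6.73, 6.86 and 6.98 in Sox17f/f uteri and 6.54, 6.40 and 6.46 in Sox17ed/ed uteri. No Sox17ed/ed mouse reached the lowest control, and the log2 fold change was -0.39 (standard error 0.09, 95% interval -0.60 to -0.18, adjusted p = 0.0266), a decrease of 1.31-fold. Its adjusted p ranged from 0.0349 to 0.0806 with each array left out and stayed under 0.05 only without Sox17f/f replicate 1. *Per1*, which is induced rapidly by light, glucocorticoids and other signals as well as by the clock, read 12.87, 12.82 and 12.89 in the controls and 12.37, 12.72 and 12.49 in Sox17ed/ed uteri. The controls lay within 0.07 of each other and all Sox17ed/ed mice lay below them, though replicate 2 only by a little. This gave a log2 fold change of -0.34 (standard error 0.10, 95% interval -0.58 to -0.09, adjusted p = 0.0680), and without Sox17ed/ed replicate 2 it was -0.44 with an adjusted p of 0.0246; over all alternatives the adjusted p ran from 0.0189 to 0.170. *Per3*, which is not needed for rhythm in mice, read 6.30, 6.16 and 6.11 in the controls and 5.98, 6.51 and 5.91 in Sox17ed/ed uteri. The Sox17ed/ed mice lay on both sides of the controls, and the log2 fold change was -0.06 (standard error 0.17, 95% interval -0.47 to 0.36, adjusted p = 0.850).

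The cryptochromes, the partners of PER in repression, gave little signal of a difference. *Cry2* read 11.38, 11.30 and 11.38 in the controls and 11.07, 11.31 and 11.29 in Sox17ed/ed uteri. Replicate 1 alone lay clearly below the controls, and the log2 fold change was -0.13 (standard error 0.09, 95% interval -0.34 to 0.08, adjusted p = 0.345). No array showed the single probe of *Cry1* well above background, with a processed signal between 2.87 and 4.10 where the lowest signal well above background was 13.1 to 18.0. No change of *Cry1* can be given from this probe.

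The REV-ERB receptors and *Dbp*, whose genes are strongly driven by ARNTL and CLOCK, were on the higher side. *Nr1d1* read 7.71, 8.07 and 7.74 in Sox17f/f uteri and 8.05, 8.38 and 8.06 in Sox17ed/ed uteri. Control replicate 2 fell among the Sox17ed/ed mice, and the log2 fold change was 0.32 (standard error 0.14, 95% interval -0.01 to 0.65, adjusted p = 0.155). *Nr1d2*, its paralog, read 8.62, 8.69 and 8.64 in the controls and 8.58, 9.01 and 8.69 in Sox17ed/ed uteri. Only replicate 2 stood above the controls, and the log2 fold change of 0.11 (standard error 0.12, 95% interval -0.18 to 0.40, adjusted p = 0.569) was -0.02 without it.

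*Dbp*, a D-box activator with one of the widest daily swings of any mRNA, had the highest log2 fold change among the members. Its brighter probe read 11.79, 11.94 and 12.22 in the controls and 12.31, 12.62 and 12.27 in Sox17ed/ed uteri. All 3 Sox17ed/ed mice lay above the controls, the nearest of them close to control replicate 3, and the log2 fold change was 0.42 (standard error 0.14, 95% interval 0.07 to 0.77, adjusted p = 0.0969), or 1.34-fold. The other probe read 11.67, 11.75 and 12.13 against 12.21, 12.64 and 12.26, again without overlap, a log2 fold change of 0.52 (standard error 0.17, adjusted p over all probes tested = 0.119). Without Sox17f/f replicate 3, *Dbp* passed the thresholds of the methods with a log2 fold change of 0.53 and an adjusted p of 0.0483, and it did so in no other alternative tried. The adjusted p ranged from 0.0194 to 0.246 over its 15 alternatives.

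**Figure D2:**
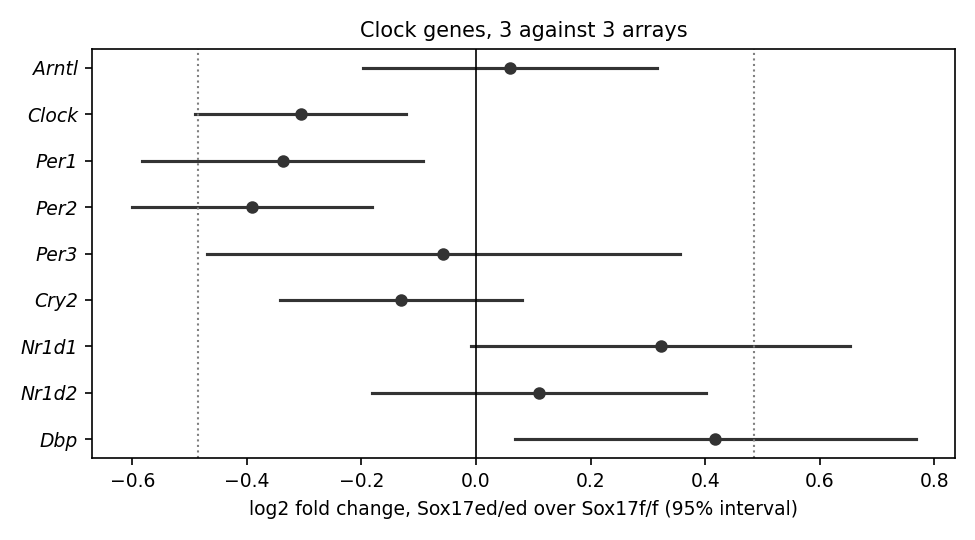
Log2 fold change of the 9 clock genes tested in Sox17ed/ed over Sox17f/f uteri, with the 95% interval from limma (3 arrays against 3). The dotted lines mark the fold threshold of the methods, 0.49 in either direction; no point estimate crossed it, 4 intervals lay wholly inside it (*Arntl*, *Per3*, *Cry2* and *Nr1d2*), and 4 intervals excluded 0 (*Clock*, *Per1*, *Per2* and *Dbp*).

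For 4 of the genes, *Arntl*, *Per3*, *Cry2* and *Nr1d2*, the whole interval lay inside the fold threshold, whereas for the other 5 a change of 1.4-fold remained within it. Thus the arrays bound the change of *Arntl* more tightly than that of *Dbp*.

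The genes whose profiles over the 6 arrays were most like those of 4 members were sought among all other genes tested, by the root mean square difference between profiles centred on their own means. For *Dbp* these were *Cxcr6*, *Itm2a* and *Ramp1* (0.05 log2 units each), and for *Nr1d1* they were *Tspan32*, *Akr1c14* and *Mkrn3* (0.07 each). *Per2* was followed most closely by *Zfp800*, *Grn* and *Rfk* (0.03 to 0.05), and *Arntl* by *Fam216a*, *Smad2* and *Phf2* (0.03 each). None of the further clock pathway genes was among them, and the likeness is a description over 6 arrays of 2 genotypes.

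Outside the members, some genes of the wider clock pathway had larger changes. Of a list of 26 further genes, 24 were tested. The thresholds of the methods were passed by 6 of them, beside 12.5% of all genes, of which 1 was higher (6.04% of all genes) and 5 were lower (6.47%). Over the 24 the median log2 fold change was -0.08. The median size regardless of sign was 0.20, under the 0.31 of the members and beside 0.17 for all genes tested. *Tsc22d3* was higher, and *Nfil3*, *Tspan4*, *Npas2*, *Rora* and *Fbxl21* were lower. All 6 had an adjusted p under 0.05, beside 18.9% of all genes tested, and no other gene of the list did.

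Among the D-box factors the repressor fell and the activators did not pass the test. *Nfil3* read 12.46, 12.41 and 12.41 in the controls and 11.21, 11.44 and 11.28 in Sox17ed/ed uteri. That gap is far wider than the spread within either genotype, and the log2 fold change was -1.12 (standard error 0.08, adjusted p = 0.000342). The adjusted p stayed under 0.05 in all 14 alternatives tried. *Tef* (0.10, adjusted p = 0.606) and *Hlf* (0.21, adjusted p = 0.370), are the relatives of *Dbp*. *Nfil3* is also induced by cytokines and glucocorticoids outside the clock.

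*Rora*, which encodes a ROR receptor that activates *Arntl*, read 8.15, 8.08 and 8.05 in the controls against 7.70, 7.69 and 7.38, a log2 fold change of -0.51 (standard error 0.10, adjusted p = 0.0212). The groups did not overlap, although *Rora* sat close to the fold threshold and lost its call in 3 alternatives.

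*Npas2*, which can stand in for CLOCK as the partner of ARNTL, read 5.22, 5.09 and 4.95 in the controls and 4.59, 3.66 and 4.32 in Sox17ed/ed uteri. Its probe was well above background on all 3 control arrays and on 2 of the 3 Sox17ed/ed arrays, and the log2 fold change was -0.89 (standard error 0.24, adjusted p = 0.0480). It lost its call in 7 of 13 alternatives, among them -0.26 with another background correction. *Arntl2*, the paralog of *Arntl*, had a log2 fold change of -0.74 with a wide error (standard error 0.30, adjusted p = 0.137).

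Of the rhythmic output genes, *Tspan4* fell by 0.92 on the log2 scale (adjusted p = 0.00101) and *Tsc22d3*, which encodes the glucocorticoid-induced leucine zipper, rose by 0.62 (adjusted p = 0.00285). *Wee1*, a cell cycle kinase under clock control, was at -0.08 (adjusted p = 0.629). Among the ubiquitin pathway genes that set the stability of clock proteins, *Fbxl21* was lower by -1.82 (adjusted p = 0.00124), with its probe well above background on only 1 of the 3 Sox17ed/ed arrays, and with normexp background correction the value was -0.62. The deubiquitinase *Usp2* was at -0.40 (adjusted p = 0.0674). *Ciart* and *Bhlhe41*, repressors at E-boxes, were not above background on enough arrays to be tested.

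**Figure D3:**
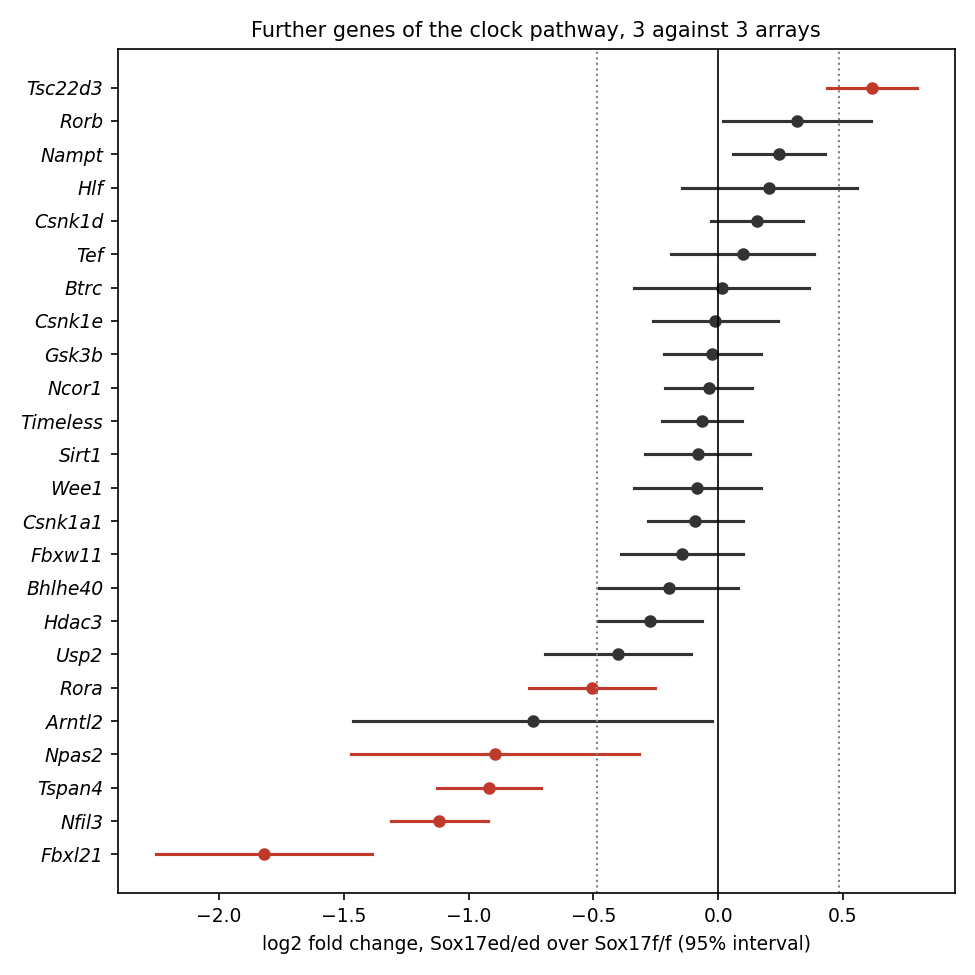
Log2 fold change in Sox17ed/ed over Sox17f/f uteri of the 24 further clock pathway genes tested, with 95% intervals from limma (3 arrays against 3). Red marks the 6 genes past the thresholds of the methods and the dotted lines the fold threshold of 0.49; *Fbxl21*, *Nfil3* and *Tspan4* lay farthest below it with intervals outside it (*Fbxl21* was at -0.62 with another background correction), and *Tsc22d3* was the one gene called above it.

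Promoter sequence is shown for 4 genes that span the directions seen, because the elements through which the loop acts can be read in them. RefSeq promoters of the GRCm38.p6 build, 250 bases before to 50 bases after a start site, were found for 9 of the 10 members, 13 promoters in all, and *Per2* was not among them. The 4 motifs were searched on both strands, and the genes shown were picked after the matches were seen. The E-box CACGTG was held by promoters of *Per1* and *Cry1* and by 7.15% of all 32851 promoters, and the related CACGTT, which shares its first 5 letters, by those of *Nr1d1*, *Cry1* and *Cry2* and by 4.69% of all. The ROR element TAGGTCA lay in a promoter of *Arntl* and in that of *Nfil3* (2.61% of all), and the D-box TTATGTAA in that of *Per3* (0.938% of all). Of the further pathway genes, 20 had a promoter in the table; beside *Nfil3*, the E-box was held by 5 (*Bhlhe41*, *Ciart*, *Sirt1*, *Tef* and *Tspan4*), CACGTT by 2 (*Ncor1* and *Rorb*) and the D-box by 1 (*Timeless*). In the lines below, read 5′ to 3′ on the strand of the gene and all upstream of the start site, capitals mark the match: the E-box of *Per1* (chr11:69098736-69098835, plus strand), CACGTT of *Nr1d1* as its reverse complement (chr11:98775378-98775477, minus strand), 2 D-boxes of *Per3* (chr4:151044794-151044893, minus strand) and the ROR element of *Nfil3* as its reverse complement (chr13:52981040-52981139, minus strand).
*Per1*: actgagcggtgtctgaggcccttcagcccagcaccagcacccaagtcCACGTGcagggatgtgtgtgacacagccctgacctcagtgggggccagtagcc
*Nr1d1*: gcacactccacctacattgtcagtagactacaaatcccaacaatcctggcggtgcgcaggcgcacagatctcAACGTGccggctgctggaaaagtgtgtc
*Per3*: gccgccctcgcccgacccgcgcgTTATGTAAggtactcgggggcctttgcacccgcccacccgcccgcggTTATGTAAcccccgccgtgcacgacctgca
*Nfil3*: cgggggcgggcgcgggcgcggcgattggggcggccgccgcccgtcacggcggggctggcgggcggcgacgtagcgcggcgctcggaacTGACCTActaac
The E-box of *Per1* began 166 bases and CACGTT of *Nr1d1* 28 bases before the start site, the D-boxes of *Per3* 205 and 158 bases before it, and the ROR element of *Nfil3* 12 bases before it. Tested genes with an E-box or its relative were on both sides of the comparison. *Tspan4* (-0.92), *Per1* (-0.34), *Cry2* (-0.13), *Sirt1* (-0.08) and *Ncor1* (-0.04) were lower, and *Nr1d1* (0.32), *Rorb* (0.32) and *Tef* (0.10) were higher. Of these, *Tspan4* alone passed the thresholds of the methods. *Per3*, with 2 D-boxes, was at -0.06 while *Dbp* was at 0.42 and *Nfil3* at -1.12. A match of letters is a description and does not show that a factor was bound.

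Since the hour of harvest is not known, the array values were set out by the part of the day in which each mRNA is generally known to peak, a grouping written after the values were seen. The 9 genes placed between day and dusk were *Nr1d1*, *Nr1d2*, *Dbp*, *Tef*, *Hlf*, *Usp2*, *Per3*, *Per1* and *Per2*. They did not share a direction, 5 higher and 4 lower in Sox17ed/ed uteri, with 0 called and a median log2 fold change of 0.10. The rhythmic output genes *Tspan4* (-0.92, called), *Tsc22d3* (0.62, called) and *Wee1* (-0.08) were left out of the grouping. Of the 4 that peak between late night and dawn (*Arntl*, *Clock*, *Npas2* and *Nfil3*), 3 were lower. Of these, 2 were called (*Nfil3* and *Npas2*), beside 12.5% of all genes tested, and *Npas2* lost its call in 7 of 13 alternatives. The median of -0.60 over the 4 genes fell between *Clock* at -0.31 and *Npas2* at -0.89.

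**Figure D4:**
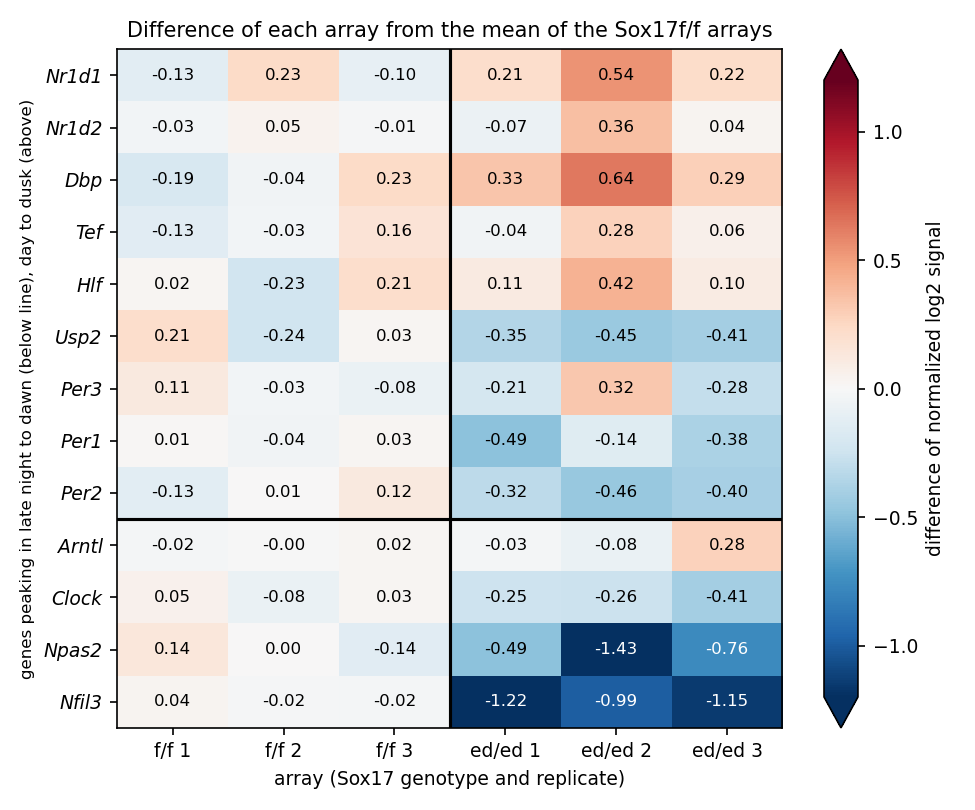
Difference of each array from the mean of the 3 Sox17f/f arrays in normalized log2 signal, for 13 rhythmic genes ordered by the part of the day in which their mRNA peaks (day to dusk above the horizontal line, late night to dawn below it). Red is higher and blue lower, and the numbers give the differences. Replicate 2 of the Sox17ed/ed mice was the highest of its genotype for *Nr1d1*, *Nr1d2*, *Dbp*, *Tef*, *Hlf*, *Per3* and *Per1*.

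Within the Sox17ed/ed genotype, replicate 2 stood apart in these genes. It was the highest of the 3 mice for 7 of the 9 day to dusk genes, where over 14792 genes with a value in all 3 it was the highest for 33.7%, and its median difference from the control mean over those 9 genes was 0.32 beside -0.07 and 0.04 in the other mice of its genotype. The exceptions were *Per2* and *Usp2*, for which it was the lowest. It was also the lowest of the 3 for *Arntl* and *Npas2*, but the highest for *Nfil3*. Among the controls the median differences were -0.03, -0.03 and 0.03, and replicate 3 was the highest for 5 of the 9. Without Sox17ed/ed replicate 2, again 0 of the 9 members passed the thresholds of the methods, and *Per1* alone had an adjusted p under 0.05. The SD between arrays was larger in Sox17ed/ed than in Sox17f/f uteri for 6 of the 9 members, beside 51.3% of all genes tested, with a median SD of 0.18 against 0.07 for the members and 0.11 against 0.11 for all genes. Whether the mice differed in hour of harvest was not tested.

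Genes that follow glucocorticoids and body temperature, cues that themselves change with the hour, were read from lists of 7 and 8 genes. Among the glucocorticoid-responsive genes 3 of 7 passed the thresholds, beside 12.5% of all genes, with *Sgk1* (1.68, adjusted p = 0.00124) and *Fkbp5* (0.77, adjusted p = 0.00675) higher and *Errfi1* (-0.50, adjusted p = 0.0142, with the call lost in 3 alternatives) lower. *Sgk1*, a kinase of ion transport, is also regulated by ovarian steroids in the uterine epithelium. Which of these hormones *Sgk1*, *Fkbp5*, *Errfi1* or the rest of the list followed in these uteri was not tested. The other 4 genes of the list did not pass, with *Klf9* at -0.11, *Zbtb16* at -0.03, *Cdkn1a* at -0.12 and *Klf15* at 0.26. Of the temperature-responsive genes, 0 of 7 tested passed either threshold, and 0 had an unadjusted p under 0.05. Replicate 2 of the Sox17ed/ed mice was the lowest of its genotype for all 5 heat shock genes and the highest for both cold-inducible genes, *Cirbp* and *Rbm3*. Over 14792 genes that mouse was the lowest of its genotype for 33.7% and the highest for 33.7%. Control replicate 2 was likewise the highest of its genotype for both cold-inducible genes, and the lead in *Rbm3* was small (13.31, 13.57 and 13.55 in Sox17ed/ed against 13.66, 13.74 and 13.63 in Sox17f/f uteri). *Cirbp*, which encodes a cold-inducible RNA-binding protein, read 10.92, 11.70 and 10.98 in the Sox17ed/ed uteri and 11.46, 11.50 and 11.40 in the controls. *Hsph1*, which encodes a heat shock chaperone, read 13.34, 12.50 and 13.13 against 12.81, 12.91 and 12.75. This pattern was noticed after the values were seen.

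In whole uterus, fewer cells of a type and less RNA per cell cannot be told apart, so marker genes of the main cell types are set beside these results. Of the 6 markers of uterine epithelium, 4 passed the thresholds and were higher (*Cdh1*, *Krt19*, *Krt7* and *Krt8*), beside 12.5% of all genes tested. *Epcam* (0.10) and *Krt18* (-0.16) did not pass, and *Krt18* was lower without overlap between the genotypes. The largest rise was that of *Krt19* (log2 fold change 2.10). The summed signal of the 6 on the linear scale was 45625 to 57101 in Sox17ed/ed against 35515 to 37887 in Sox17f/f uteri. The smooth muscle sum was 341330 to 412240 against 469480 to 516550, with 1 of 6 markers (*Actg2*) past the thresholds and lower. The endothelial sum was 5823 to 6114 against 7384 to 7519, with 0 of 5 past them. Without the fold threshold, smooth muscle *Cnn1* (-0.48, limma adjusted p = 0.0294) was also lower. So were endothelial *Cdh5* (-0.43, adjusted p = 0.00394), *Kdr* (-0.37, adjusted p = 0.0355) and *Pecam1* (-0.29, adjusted p = 0.0369). An adjusted p under 0.05 was reached by 18.9% of all genes. Stromal markers gave 57285 to 62738 against 56316 to 61186, with 0 of 7 past the thresholds, although *Hoxa10* was higher (0.34, limma adjusted p = 0.0139). The cell cycle sum was 12193 to 13122 against 6728 to 10897, with 0 of 5 past them. Of the oviduct markers 2 of 3 passed in opposite directions, *Foxj1* higher, with its probe well above background on 1 of 3 control arrays, and *Ovgp1* lower, with a sum of 314 to 363 against 1337 to 2373. Sums of leukocyte, erythrocyte and ovary markers overlapped between the genotypes with 0 genes past the thresholds. The ovary sum came almost wholly from *Foxl2*. Of the erythrocyte markers, *Alas2* was lower without overlap (-1.03, limma adjusted p = 0.0734), with *Hba-a1* at 0.14 and *Hbb-bs* at 0.10. Sums of neutrophil (642 to 1078 against 970 to 1589) and adipocyte markers (87.7 to 113 against 116 to 214) also had 0 genes past the thresholds. The 2 adipocyte markers tested went opposite ways, *Fabp4* at -0.78 and *Adipoq* at 0.95. The *Adipoq* probe was well above background on only 1 control array and 2 Sox17ed/ed arrays. *Lep* and *Plin1* of adipocytes and *Cyp11a1* and *Amh* of ovary were not above background on enough arrays. The sums of epithelium, smooth muscle, endothelium, cell cycle, oviduct and adipocyte markers thus did not overlap between the genotypes. The same held for *Per2*, *Clock*, *Per1* and *Dbp*, and for 40.6% of all genes tested. The part of these cell types in the clock gene results was not tested.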

How the data were processed

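Whole uterus RNA from 3 Sox17f/f and 3 Sox17ed/ed mice at GD 3.5 was hybridized to 1-colour Agilent G3 Mouse GE arrays, 1 mouse to an array. Groups and replicate numbers were taken from the sample titles. The authors deposited spot intensity from Feature Extraction 11.0.1.1, per the file headers, as a processed signal with the background of each spot subtracted and no normalization between arrays. The deposited table of the series held the same intensity averaged over spots (median difference 0.005%), and it served as an alternative. Outlier and control spots were left out (169 to 302 outliers per array), and 0 spots were saturated.

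From the deposited intensity, log2 values were quantile normalized as in the study's methods, and spots of a probe were averaged. A probe was kept if at least 3 of 6 arrays showed it well above background, and the brightest stood for a gene. Of 55681 probes, 26582 matched 20145 genes by accession in a RefSeq table of GRCm38.p6. The array design is annotated on mm9, so no probe coordinates are given. For 85 genes a value was missing on an array and the fit used the rest. The methods name no test; limma 3.58.1 (lmFit, eBayes) in R 4.3.3 was used, with Benjamini-Hochberg adjustment over all 14847 genes and 95% intervals from the moderated standard error. Precision is limited by the number of arrays (3 against 3 allow no exact permutation p below 0.1). The steps were tested on simulated data. Tallies, promoter searches and plots were made in Python 3.11.15 with pandas 2.3.3, numpy 2.4.6 and matplotlib 3.10.9.

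The members, the lists and the rule for named genes were chosen with earlier results of these data known. The rule named every probe of the members, every gene of the clock, glucocorticoid and temperature lists past the thresholds, 10 clock genes whatever their call (*Npas2*, *Arntl2*, *Tef*, *Hlf*, *Nfil3*, *Ciart*, *Usp2*, *Tspan4*, *Tsc22d3*, *Wee1*), *Sox17*, and the 3 nearest profiles of *Dbp*, *Nr1d1*, *Per2* and *Arntl*; *Cirbp*, *Rbm3*, *Hsph1*, the glucocorticoid genes that did not pass, the further promoter matches and the marker genes named were picked with their values seen. Alternatives were a shift by the 75th percentile, normexp with an offset of 50 (on the median spot signal, since the files used hold no mean signal), no filter or a filter on all 6 arrays, the mean or the second brightest of a gene's probes, an eBayes intensity trend with a robust prior, the deposited table, the replicate number as a block, each array left out, and a fold threshold of 2. The study's other experiments were not analysed here, and some genes of the lists are not reported here; counts over the lists are given without them.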

Additional observations from a re-analysis of the deposited data

How the results depend on the processing

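The count of clock genes past the thresholds of the methods was 0 in each alternative tried but the one without Sox17f/f replicate 3, with a range of 0 to 1 over the arrays left out in turn. The count with an adjusted p under 0.05 was less stable. It was 2 as reported, 0 with no filter on dim probes, where 20145 genes were tested, and 0 to 1 with each array left out, where fewer arrays were fitted. It was 3 with the 75th percentile shift, where *Per1* was added, and 3 with an eBayes trend, where *Clock*, *Dbp* and *Per1* passed in place of *Clock* and *Per2*. With normexp the 2 genes were *Dbp* and *Per1*. With the replicate number as a replicate block it was 0, and 1796 of all genes passed the thresholds of the methods in place of 1857. Same-numbered mice did not deviate together (correlations across genes of 0.06, -0.11 and -9.52e-05 for replicates 1, 2 and 3), so the numbers were not taken to pair them, and a call lost under the block is not read as a weaker effect.

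A fold threshold of 2 left 817 of all genes tested (5.50%) and 2 of the further clock pathway genes. With each array left out, 1665 to 2033 of all genes (11.2% to 13.7%) and 4 to 6 pathway genes passed.

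Directions turned only for values near 0, and only where a Sox17ed/ed array was left out. Over the arrays left out, *Per3* ran from -0.247 (without replicate 2) to 0.0565 (without replicate 3) and was 0.0203 without replicate 1, *Nr1d2* from -0.0174 (without replicate 2) to 0.201, *Wee1* from -0.153 to 0.002 (without replicate 2), and *Arntl* from -0.0510 (without replicate 3) to 0.128. The other members, *Sox17* and the clock and glucocorticoid genes recomputed (those past the thresholds, *Arntl2*, *Tef*, *Hlf* and *Usp2*) kept their direction in the alternatives tried. The marker genes, *Klf9*, *Zbtb16*, *Cdkn1a*, *Klf15*, *Sirt1*, *Ncor1* and *Rorb* were not recomputed. With normexp *Fbxl21* was at -0.62 in place of -1.82. Past the thresholds, *Npas2* lost its call in 7 alternatives and *Rora* and *Errfi1* in 3 each, while *Usp2* gained one without Sox17f/f replicate 2 (-0.52). The causes were not tested. No scaling moved the median of all genes by more than 0.02 on the log2 scale. Signal over background limits *Cry1*, *Npas2*, *Fbxl21*, *Foxj1* and *Adipoq*.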
